A study of Mus musculus with 16 samples.

Results

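Interferon-stimulated genes (ISGs) were examined in RNA of EpCAM+ cells sorted from the distal colon of 16 mice. The module was a list of 48 gene symbols, set by name, but chosen with earlier results of these data known. All 48 were found among the 22396 gene symbols of the tables. It held 5 Ifit genes, 6 genes of the oligoadenylate synthetase (OAS) family, 4 genes of the ISG15 system, 3 cytoplasmic RNA sensors, 4 transcription factors, 9 interferon-induced GTPases, 9 direct antiviral effectors, 2 PARP enzymes and 6 other induced genes.

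ISGs are switched on when an interferon binds its receptor at the cell surface. Type I and type III interferons act through JAK1, TYK2 and a complex that holds STAT2 and IRF9 and binds the interferon-stimulated response element (ISRE), while the response to interferon-gamma runs through the gamma-activated site (GAS). The encoded proteins sense foreign nucleic acid, block translation, trap virions, attack pathogen vacuoles and feed back on the pathway. Intestinal epithelial cells keep part of this programme on at rest and are known for their response to type III interferon.

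Adult mice of 2 genotypes had received water or dextran sulfate sodium (DSS), an agent that injures the colonic epithelium when drunk. Controls were Tnfr2-f/f, with the gene of TNFR2 (Tnfrsf1b) floxed, and the other mice were Vil1::Cre;Tnfr2-f/f, in which Cre under the villin promoter acts in intestinal epithelial cells only; every mouse thus carried the floxed allele. The DSS arm held 3 controls and 4 mice labelled knockout, and the water arm 4 controls and 5 mice labelled knockout. The labels give 3% DSS for 6 days and dissection at day 12 in both arms, whereas the published methods name a slightly higher dose, injured regions and, for uninjured mice, the start of the experiment. The comparisons ask whether loss of epithelial TNFR2 shifts the interferon programme with and without injury, and how its level after DSS compares with that in water. The DSS arm was all female (7 mice, 2 cages), while the 4 males of the water arm shared a cage and its 5 females another. No cage held both treatments, so treatment, cage and table cannot be told apart.

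Transcript abundance was given in TPM, which is normalised for transcript length, in a separately scaled table for each treatment, and 10310 to 10961 genes per mouse reached 1 TPM. Per-library depth cannot be read from TPM, and the study's methods give only an approximate read number for its libraries at large. Because of the separate scaling, genotypes were tested within a table, and treatment is described by levels, with no test, after 1 rescaling of all 16 mice (rescaled TPM). Epithelial markers were high in every library, with Epcam at 566 to 1017 TPM. The targeted gene was not lower beyond the spread between mice in the libraries labelled knockout. Tnfrsf1b was at 13.3 to 22.2 TPM in the DSS-treated controls and 13.5 to 27.0 TPM in those labelled knockout, a log2 change of 0.14 (SE 0.27). The values in water were 11.1 to 15.5 TPM against 9.23 to 14.8 TPM, a log2 change of -0.23 (SE 0.16). TPM of a whole transcript does not show whether the floxed part was removed.

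Promoter windows show what the members share in sequence, which the list did not use. RefSeq windows on GRCm38.p6, from 250 bases before to 50 after a start, were given for 36 of the 48 members (44 windows). An ISRE-like word, GAAANNGAAA on either strand, was in 21 of these 36 members (58.3%), against 3.99% of 27025 genes with a window. A GAS-like word, TTCNNNGAA, which reads alike on both strands, was in 10 members (27.8%), against 9.55% of genes. All genes with a window include the members. At least 1 of these words was in 25 members (69.4%), against 12.9% of genes. The ISRE-like word was in 6 of 7 matched GTPases, 4 of 5 Ifit genes, 3 of 5 OAS genes, both matched RNA sensors, 3 of 6 effectors, 1 of 3 genes of the ISG15 system, 1 of 4 transcription factors and 1 of 4 other induced genes. A match is a description of letters and not evidence of binding.

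The windows of 6 members on which the results turn are printed 5′ to 3′ along the gene, with matches on either strand in capitals. Only windows with a match were eligible, so that of Samd9l, which held neither word, is not shown. Eif2ak2 was the member higher, and Bst2 the member lower, in every DSS-treated mouse than in every water-treated mouse. Isg15 had a low unadjusted p between genotypes, Gbp3 differed most of the GTPases between treatments, and Ifit1 and Gbp2 varied widely between mice. Isg15 held 3 overlapping ISRE-like words, Ifit1 held 2, and Gbp3 held 2 that overlap. The other Gbp3 window, not printed, held no match. In Bst2 a GAS-like word overlapped the first of 2 ISRE-like words, the only such overlap among the members. Eif2ak2 held its GAS-like word 178 bases before the start and its ISRE-like word within the first bases of the transcript.
Eif2ak2 (chr17:78882523-78882822, - strand): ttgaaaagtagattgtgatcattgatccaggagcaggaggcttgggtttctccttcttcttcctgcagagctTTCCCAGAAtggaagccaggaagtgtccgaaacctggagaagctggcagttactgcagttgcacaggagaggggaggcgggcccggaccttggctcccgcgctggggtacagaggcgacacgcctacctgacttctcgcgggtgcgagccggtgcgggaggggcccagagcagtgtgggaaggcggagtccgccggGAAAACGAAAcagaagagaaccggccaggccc
Bst2 (chr8:71537423-71537722, - strand): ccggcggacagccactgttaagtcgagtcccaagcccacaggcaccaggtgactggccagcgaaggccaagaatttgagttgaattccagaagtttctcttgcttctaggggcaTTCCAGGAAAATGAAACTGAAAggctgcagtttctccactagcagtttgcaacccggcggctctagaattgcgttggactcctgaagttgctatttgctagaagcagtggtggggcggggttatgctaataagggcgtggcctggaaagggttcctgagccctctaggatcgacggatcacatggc
Isg15 (chr4:156200769-156201068, - strand): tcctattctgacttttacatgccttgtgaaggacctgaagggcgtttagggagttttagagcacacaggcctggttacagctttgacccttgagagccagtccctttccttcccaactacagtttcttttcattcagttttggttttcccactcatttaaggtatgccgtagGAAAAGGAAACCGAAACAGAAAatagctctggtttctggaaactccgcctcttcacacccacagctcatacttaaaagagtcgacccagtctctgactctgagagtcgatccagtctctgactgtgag
Ifit1 (chr19:34640639-34640938, + strand): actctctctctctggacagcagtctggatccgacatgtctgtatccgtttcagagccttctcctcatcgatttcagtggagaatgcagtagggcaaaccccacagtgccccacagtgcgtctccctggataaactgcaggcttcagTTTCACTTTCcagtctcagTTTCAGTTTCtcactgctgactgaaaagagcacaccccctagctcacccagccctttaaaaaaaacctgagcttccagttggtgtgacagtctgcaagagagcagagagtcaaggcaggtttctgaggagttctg
Gbp2 (chr3:142620413-142620712, + strand): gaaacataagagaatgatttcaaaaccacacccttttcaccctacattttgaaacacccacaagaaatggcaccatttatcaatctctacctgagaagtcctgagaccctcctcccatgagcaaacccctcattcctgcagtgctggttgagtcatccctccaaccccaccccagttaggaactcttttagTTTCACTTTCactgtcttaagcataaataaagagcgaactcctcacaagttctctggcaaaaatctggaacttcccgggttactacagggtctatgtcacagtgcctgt
Gbp3 (chr3:142559794-142560093, + strand): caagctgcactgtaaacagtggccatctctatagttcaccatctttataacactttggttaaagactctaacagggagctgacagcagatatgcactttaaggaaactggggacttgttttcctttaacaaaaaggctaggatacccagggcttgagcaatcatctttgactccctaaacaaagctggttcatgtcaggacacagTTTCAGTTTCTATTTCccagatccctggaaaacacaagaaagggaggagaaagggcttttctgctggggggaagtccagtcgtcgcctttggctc

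Most members were expressed, at low levels. Averaged over the 16 mice, 41 of the 48 (85.4%) reached 1 TPM, against 50.2% of all genes, and 34 were above 0 in every mouse. Only 12 reached a mean of 10 TPM. The median of the 48 means was 3.46 TPM, against 8.04 TPM for all genes whose average reached 1 TPM. Irf1 (73.1 TPM), Bst2 (40.5 TPM), Ifit1bl1 (27.0 TPM), Oas1a (22.3 TPM), Trim25 (22.2 TPM) and Isg20 (21.9 TPM) had the highest means. Mx1, a GTPase that blocks influenza viruses and is defective in many laboratory strains, was listed at 0 in all mice except 1 water-treated control. Read assignment limits some members, since only the principal isoforms were listed. Under 50% of the 31-base windows of the listed transcript were found in no other gene for 5 members, namely Gbp6, Oas1a, Oas1g, Ifit3 and Ifit3b, and these values depend on how reads were shared out.

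**Figure D1:**
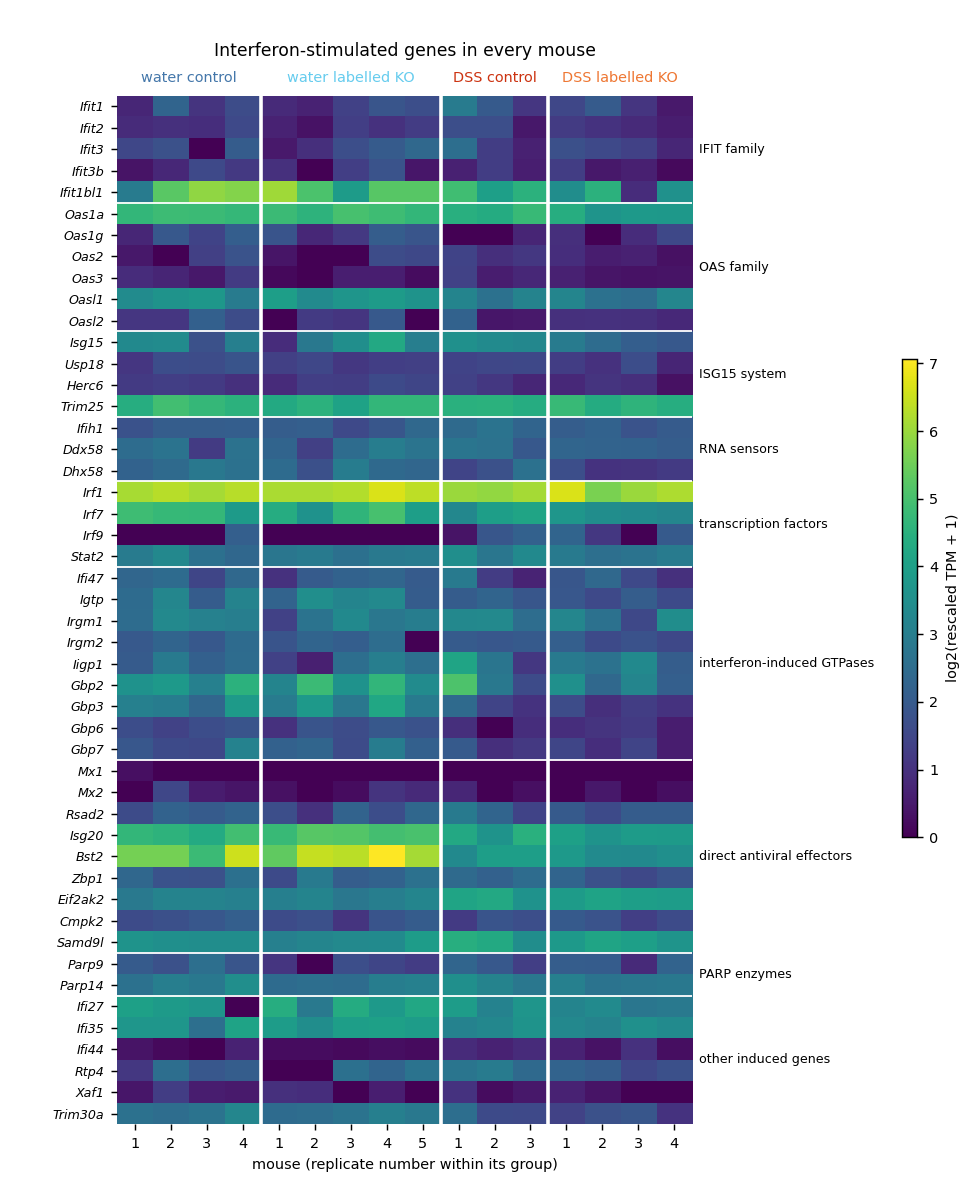
Level of each of the 48 members (rows, by role) in each of the 16 mice (columns, by group and replicate number) as log2(rescaled TPM + 1), with KO for knockout. Irf1 is high in every mouse, Mx1 is at or near 0, Bst2 is brightest in the water libraries, and Eif2ak2 is brighter after DSS.

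In what follows, deposited TPM is given mouse by mouse in the order of replicate numbers, and where 2 sets of values stand together the controls come first and the labelled knockouts second.

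Among the transcription factors, Irf1, an early responder that itself binds interferon-response elements, was the most abundant member. Its TPM was 70.5, 66. and 82.7 in the DSS-treated controls and 117, 57.0, 72.8 and 82.2 in the DSS-treated labelled knockouts. In water it was 63.6, 69.3, 60.8 and 69.1 in controls and 64.5, 63.7, 68.7, 88.6 and 73.2 in labelled knockouts. The 4 groups overlapped, with DSS knockout 1 the highest. Irf7, the amplifier of type I interferon production, ranged from 9.66 to 20.1 TPM after DSS and 10.0 to 27.7 TPM in water. Stat2, a subunit of the ISRE-binding complex, ranged from 5.76 to 11.4 TPM after DSS and 3.65 to 7.93 TPM in water. Irf9, the DNA-binding partner of STAT2, read 0.328, 2.97 and 4.30 TPM in the DSS-treated controls and 4.44, 1.42, 0 and 3.40 TPM in the labelled knockouts. In water, 7 of the 9 mice were below 0.001 TPM, and water control 4 (3.00) and water knockout 4 (0.0014) were the other 2. Of the 31-base windows of the listed Irf9 transcript, 96.8% were in no other gene but only 1.03% in no other transcript. Reads can thus fall to Irf9 transcripts outside the tables, and these values do not show that the gene was off.

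The RNA sensors detect viral double-stranded RNA in the cytoplasm and signal through MAVS. Ddx58, which encodes RIG-I, was at 6.48, 5.88 and 3.48 TPM in the DSS-treated controls and 4.63, 4.39, 4.20 and 3.71 TPM in the labelled knockouts. The water values were 4.26, 4.83, 1.18 and 4.79 TPM against 3.52, 1.37, 4.30, 6.11 and 5.01 TPM, with a low mouse in each genotype. Ifih1, which encodes MDA5, was at 5.00, 6.02 and 4.67 TPM in the DSS-treated controls and 3.72, 4.28, 2.90 and 3.55 TPM in the labelled knockouts, without overlap. Its water values were 2.21, 2.92, 2.86 and 2.93 TPM and 2.97, 3.01, 1.78, 2.40 and 3.76 TPM, which did overlap. Dhx58, which encodes the regulator LGP2, was at 1.93, 2.65 and 6.33 TPM and 2.62, 1.21, 1.26 and 1.48 TPM after DSS. Its water values of 3.36, 3.92, 5.39 and 4.60 TPM in controls and 4.18, 2.04, 6.20, 3.85 and 3.62 TPM in labelled knockouts were mostly higher.

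Ifit proteins bind viral RNA and stop its translation. Ifit1 was at 7.56, 3.31 and 1.41 TPM in the DSS-treated controls and 2.11, 3.55, 1.29 and 0.452 TPM in the labelled knockouts. The water-treated mice had 0.622, 3.44, 0.955 and 1.87 TPM and 0.717, 0.530, 1.43, 2.33 and 1.98 TPM. DSS control 1 was the highest of all 16 mice, and the groups overlapped. Ifit1bl1, an Ifit1-like gene of the same cluster, varied widely, with 32.7, 16.3 and 26.9 TPM in the DSS-treated controls and 11.7, 26.1, 0.977 and 12.5 TPM in the labelled knockouts. Its water values were 6.13, 33.5, 51.6 and 47.4 TPM and 60.3, 28.9, 12.6, 32.5 and 32.7 TPM. Some water-treated mice had more Ifit1bl1 than any DSS-treated mouse, but the groups overlapped. Ifit2 and Ifit3 had means of 1.14 and 1.99 TPM over all mice, and Ifit3b of 0.891 TPM.

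OAS enzymes make 2′-5′ oligoadenylates that activate RNase L. Oas1a was at 23.4, 21.5 and 31.8 TPM in the DSS-treated controls and at 23.6, 13.7, 14.8 and 14.4 TPM in the labelled knockouts, of which the first lay within the control range. Water-treated controls and knockouts had 22.5, 24.6, 24.1 and 22.3 TPM and 24.965, 20.1, 28.7, 24.9 and 22.016 TPM. Its neighbour Oas1g, which shares sequence with it, was at 0, 0 and 0.797 TPM and 1.09, 0, 1.01 and 2.16 TPM after DSS, and at 0.633, 2.57, 1.48 and 2.97 TPM and 2.33, 0.659, 1.15, 2.84 and 2.38 TPM in water. Oasl1, a synthetase-like regulator without that enzymatic activity, was at 9.03, 5.75 and 9.51 TPM and 9.58, 6.10, 5.47 and 9.76 TPM after DSS. In water its values were 8.68, 10.3, 11.1 and 5.89 TPM and 13.2, 8.32, 11.0, 12.2 and 10.1 TPM. Oasl2 was low, at 4.14, 0.378 and 0.493 TPM and 1.13, 1.16, 1.12 and 0.886 TPM after DSS and 1.05, 1.03, 3.14 and 1.91 TPM and 0, 1.14, 1.05, 2.60 and 0 TPM in water. Oas1a and Oasl1 were thus above 5 TPM in every mouse, whereas Oas1g and Oasl2 were at 0 in some. Oas2 and Oas3 had means of 0.921 and 0.561 TPM over all mice.

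ISG15 is a ubiquitin-like protein that is joined to other proteins and also secreted. Isg15 was at 12.0, 10.3 and 10.6 TPM in the DSS-treated controls, and each of the labelled knockouts was lower, at 7.71, 5.41, 3.80 and 3.25 TPM. In water the genotypes overlapped over a wider range, at 8.44, 8.65, 2.10 and 6.50 TPM and 0.782, 5.46, 9.47, 16.2 and 6.40 TPM. Trim25, a ubiquitin ligase that also ligates ISG15 and activates RIG-I, was even across mice. It was at 24.0, 23.9 and 23.8 TPM and 30.3, 22.4, 26.6 and 23.2 TPM after DSS, and at 18.4, 26.3, 22.4 and 19.9 TPM and 16.8, 19.6, 14.4, 21.7 and 22.002 TPM in water. Usp18, which removes ISG15 and dampens receptor signalling, had a mean of 1.65 TPM over all mice, and Herc6, a ligase for ISG15 in mice, of 1.17 TPM.

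The interferon-induced GTPases coat and rupture vacuoles that hold bacteria or parasites, and many answer chiefly to interferon-gamma. Gbp2 was at 37.6, 6.72 and 2.47 TPM in the DSS-treated controls, a wide spread, and at 12.4, 4.90, 9.55 and 3.91 TPM in the labelled knockouts. In water it was at 10.0, 11.4, 6.57 and 19.9 TPM and 7.33, 24.3, 10.3, 21.2 and 8.57 TPM. Gbp3 was at 4.98, 1.91 and 1.25 TPM and 2.49, 1.10, 1.64 and 1.22 TPM after DSS, where DSS control 1 was again highest. Its water values were 6.78, 6.07, 3.57 and 12.0 TPM in controls, of which the third was below DSS control 1, and 6.10, 11.5, 5.45, 15.3 and 5.80 TPM in labelled knockouts. Gbp6, whose reads overlap those of a near-identical annotated gene, was at 1.07, 0 and 1.10 TPM and 1.04, 1.28, 1.48 and 0.563 TPM after DSS and at 1.97, 1.47, 1.97 and 2.28 TPM and 0.939, 2.31, 1.93, 2.54 and 2.19 TPM in water. In controls both Gbp2 and Gbp3 overlapped between treatments. Iigp1, an immunity-related GTPase (IRG) that attacks Toxoplasma vacuoles, was at 18.6, 6.31 and 1.46 TPM and 7.64, 6.19, 10.5 and 3.72 TPM after DSS. Its levels in water were 2.79, 5.78, 3.13 and 4.13 TPM and 1.43, 0.475, 4.49, 6.28 and 4.42 TPM. Ifi47, also an IRG protein, was at 7.12, 1.53 and 0.749 TPM and 3.16, 4.95, 2.22 and 1.11 TPM after DSS and at 3.66, 4.02, 1.58 and 3.74 TPM and 0.926, 2.77, 3.39, 3.56 and 2.75 TPM in water. Irgm2, a regulator of the other IRG proteins, lay between 2.15 and 3.95 TPM in every DSS-treated mouse. In water Irgm2 was at 2.63, 3.41, 2.51 and 4.06 TPM and 2.37, 3.40, 3.06, 4.19 and 1.71e-08 TPM, and its annotated locus overlaps that of Igtp. Igtp, Irgm1 and Gbp7 had means of 4.68, 6.70 and 2.64 TPM over all mice.

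Of the direct antiviral effectors, Eif2ak2 encodes PKR, the kinase that stops translation on double-stranded RNA. It was at 18.4, 20.1 and 13.6 TPM in the DSS-treated controls and 16.044, 18.7, 16.7 and 15.9 TPM in the labelled knockouts, and at 5.69, 7.09, 7.14 and 6.58 TPM and 6.62, 7.18, 5.53, 6.27 and 7.48 TPM in water. Samd9l, a restriction factor for poxviruses, was at 22.9, 20.7 and 12.2 TPM and 15.1, 19.3, 17.1 and 13.3 TPM after DSS. Its water values were 10.4, 9.32, 8.97 and 8.86 TPM and 6.84, 7.35, 8.36, 8.36 and 12.6 TPM, and water knockout 5 lay just above the lowest DSS-treated mouse. Bst2 encodes tetherin, which holds budding virions at the membrane and is also a surface antigen of plasma cells and plasmacytoid dendritic cells. It was at 10.4, 16.2 and 17.6 TPM and 14.9, 10.9, 10.7 and 11.9 TPM after DSS, and at 43.2, 42.1, 24.3 and 81.7 TPM and 36.0, 76.1, 72.9, 117 and 61.3 TPM in water. The Bst2 ranges of the 2 treatments did not touch, in contrast to those of Samd9l over all mice. Isg20, an exonuclease that degrades RNA, was at 20.5, 12.5 and 25.7 TPM and 17.6, 13.1, 15.9 and 15.2 TPM after DSS. In water it was at 22.4, 20.5, 16.9 and 26.1 TPM and 23.7, 32.7, 31.9, 26.3 and 28.7 TPM. Cmpk2, a mitochondrial nucleotide kinase, was at 1.46, 2.85 and 2.70 TPM and 3.52, 2.92, 1.71 and 2.33 TPM after DSS and 1.88, 2.06, 2.47 and 3.02 TPM and 1.90, 2.03, 0.994, 2.28 and 2.85 TPM in water. Mx2, a GTPase related to Mx1, averaged 0.377 TPM. Rsad2, which encodes viperin, and Zbp1, a sensor of Z-form nucleic acid that triggers necroptosis, had means of 3.12 and 3.61 TPM over all mice.

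PARP9 and PARP14 attach or regulate ADP-ribose. Parp9 was at 4.41, 3.14 and 1.81 TPM and 3.72, 3.66, 0.905 and 4.29 TPM after DSS. In water it was at 2.79, 2.14, 4.40 and 2.36 TPM in controls and lower, at 1.04, 0, 2.08, 1.58 and 1.24 TPM, in each labelled knockout. Parp14 was at 11.7, 8.74 and 7.17 TPM and 8.68, 6.40, 6.76 and 7.01 TPM after DSS and at 4.70, 6.40, 5.40 and 9.08 TPM and 4.16, 4.33, 4.24, 6.13 and 6.68 TPM in water. The PARP genes overlapped between treatments, and Parp9 was separate between genotypes in water. Of the remaining members, Rtp4, a chaperone of receptors that also acts against viruses, was at 6.41, 7.40 and 5.22 TPM in the DSS-treated controls and lower in each labelled knockout, at 4.36, 3.80, 2.10 and 2.60 TPM. In water it was at 1.11, 4.36, 2.47 and 2.86 TPM and 0, 0, 4.65, 3.42 and 4.83 TPM. Ifi27, a small mitochondrial membrane protein, was at 15.6, 8.50 and 14.3 TPM and 9.49, 11.0, 6.65 and 7.19 TPM after DSS, and at 13.9, 12.1, 10.6 and 1.25e-05 TPM and 18.4, 5.60, 17.8, 11.5 and 15.9 TPM in water. Water control 4 was thus near 0 for Ifi27 while all other mice were above 5 TPM. Ifi44 and Xaf1, a pro-apoptotic gene, averaged 0.413 and 0.465 TPM. Ifi35, a partner of NMI, was at 8.73, 9.49 and 13.7 TPM and 10.3, 9.1976, 12.3 and 10.8 TPM after DSS and 11.0, 10.9, 4.38 and 14.4 TPM and 12.7, 9.01, 13.4, 13.4 and 12.5 TPM in water. Trim30a, a mouse TRIM protein that restrains NF-kappaB signalling, was at 5.46, 2.24 and 2.36 TPM and 1.86, 2.78, 3.15 and 1.19 TPM after DSS. Its values in water were 4.70, 4.28, 4.85 and 7.62 TPM and 4.17, 4.27, 5.00, 6.47 and 5.45 TPM, all but 1 of the DSS-treated mice being below every water-treated mouse.

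After DSS, no member differed between genotypes past an adjusted p of 0.05 (limma), and most members had a lower mean level in the labelled knockouts. The 9 members under 1 TPM in the DSS arm (Ifit3b, Oas1g, Oas2, Oas3, Gbp6, Mx1, Mx2, Ifi44 and Xaf1) were not tested. Of 39 members tested, 33 (84.6%) had a negative log2 change, against 47.2% of the 10899 genes tested. The members' median log2 change was -0.29, against 0.015 over all genes. Of all genes, 1 was called (0.00918%), and 0 of 39 members were, with a lowest adjusted p of 1.00. At an unadjusted p under 0.05 stood 5 members (12.8%), all lower, against 2.65% of genes. With 1 mouse left out this count lay between 2 (without DSS knockout 3 or 4) and 8 (without DSS control 3). Members share regulators and libraries, so their common direction is not a count of independent results.

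Those 5 members were Isg15, Rtp4, Oas1a, Ifih1 and Zbp1. Isg15 had a log2 change of -1.04 (SE 0.26, unadjusted p = 0.00403 by limma) and an exact two-sided permutation p of 0.0571. Rtp4 had a log2 change of -0.82 (SE 0.24, p = 0.00953 by limma) and an exact permutation p of 0.0286, the smallest that 3 against 4 mice allow. The log2 changes of Oas1a, Zbp1 and Ifih1 were -0.61, -0.55 and -0.44, with an adjusted p of 1.00 by limma for each of the 5. In Isg15, Rtp4 and Ifih1 every labelled knockout lay below every control (3 of 39 members, with 1.55% of all genes in this direction). No member had all labelled knockouts above the controls (2.13% of genes). Ifit1bl1 had the largest fitted change, -1.37 (SE 0.80, exact permutation p = 0.143), and its groups overlapped. The 6 members with a positive change were Ifi35, Trim25, Iigp1, Cmpk2, Irf1 and Ifi47, at 0.020 to 0.13.

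By role, all 4 tested Ifit genes (median -0.57), all 3 OAS genes (-0.084) and all 3 RNA sensors (-0.44) had negative changes. The same held for 6 of 8 GTPases (-0.28), 6 of 7 effectors (-0.24), 3 of 4 transcription factors (-0.23) and 3 of 4 genes of the ISG15 system (-0.32). DSS control 1 weighed on this pattern. It was the highest of the 7 mice for 20 of the 39 members, against 12.3% of all genes. Without it the members' median log2 change was -0.15 and 12 of 37 tested members had a positive change, and Gbp2 turned from -0.34 to 0.63. This mouse also had the most RNA of neutrophil markers (mean log2 level 4.02, against 1.71 to 3.14 in the other DSS-treated mice) and of leukocyte markers (2.43, against 1.44 to 1.96). The part of these cells in its member levels was not tested.

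**Figure D2:**
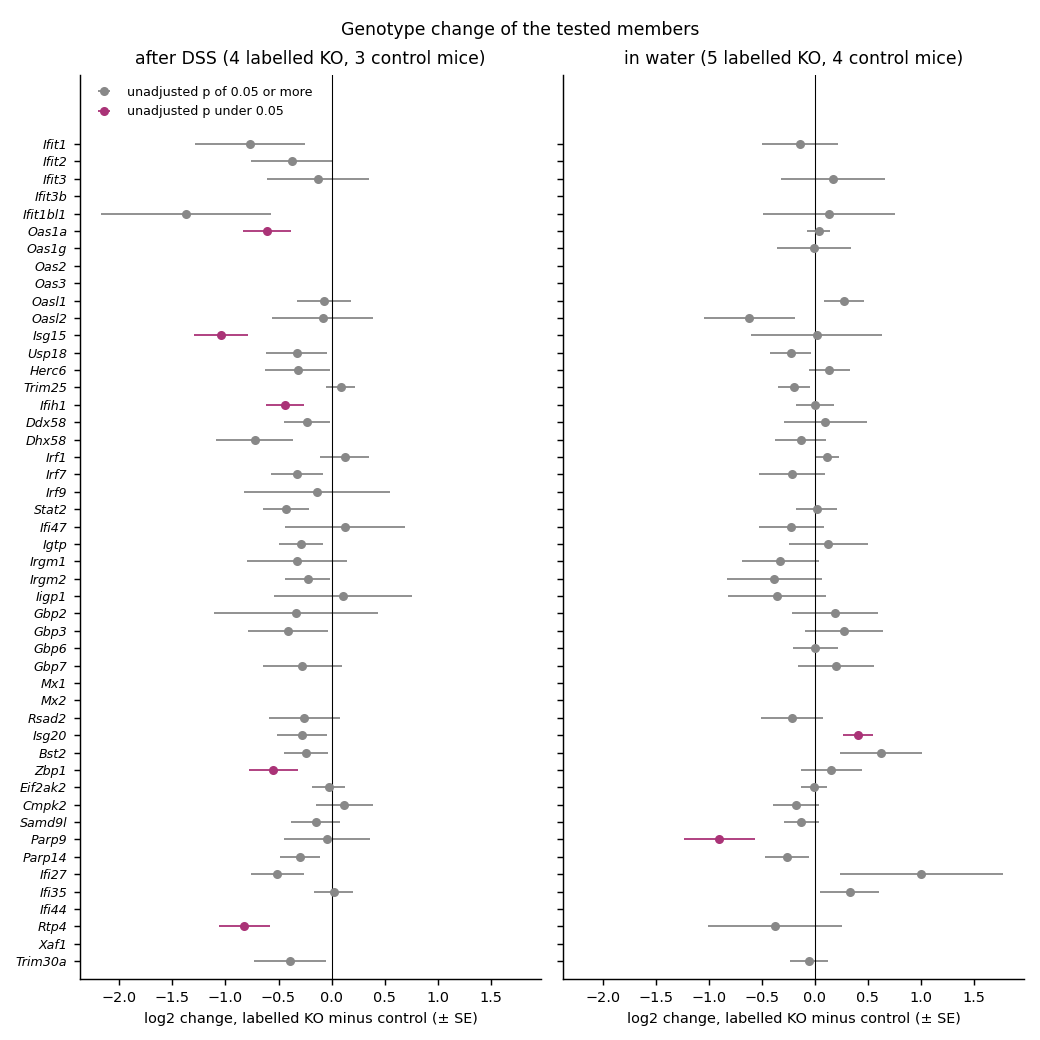
Fitted log2 change of each tested member, labelled knockout minus control, with its SE, after DSS (left) and in water (right), with members ordered by role as rows. After DSS 33 of 39 points lie below 0 and in water 19 of 39, and coloured points have an unadjusted p under 0.05.

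In water, the members showed no common direction between genotypes. Of 48 members 9 were under 1 TPM in this arm and not tested, among them Ifit2 and Irf9. Of 39 tested, 20 were higher and 19 lower in the labelled knockouts, the median log2 change was 0.0027 (-0.085 to 0.042 with 1 mouse left out), and 49.8% of all 11046 genes tested were lower. No member was called by limma, with a lowest adjusted p of 0.865, while 1 gene of all was (0.00905%). At an unadjusted p under 0.05 stood 2 members (5.13%), against 5.28% of genes. They were Parp9, with a log2 change of -0.90 (SE 0.33, exact permutation p = 0.0159) and no overlap, and Isg20, with 0.41 (SE 0.15, exact permutation p = 0.0317). Parp9 was the only member whose labelled knockouts all lay below the controls (0.878% of genes), and none lay above (0.67%). The smallest exact p that 4 against 5 mice allow is 0.00794. Bst2 (0.63, SE 0.38) and Ifi27 (1.01, SE 0.77) had larger positive changes than Isg20 with wide errors, that of Ifi27 being 0.078 without water control 4. The difference between the genotype changes of the 2 arms was not tested.

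Between treatments, levels moved both ways, and the size of the module's shift depended on the mice and scale used. In controls, 18 of 42 members were higher and 24 lower after DSS than in water on the log2(rescaled TPM + 1) scale, with a median difference of -0.18. The median over all 11273 genes was 0.018. The SD between mice of the members' median log2 level, pooled within groups, was 0.281. In the labelled knockouts, 14 of 40 were higher and 26 lower, with a median of -0.21 against 0.0033 over all 11196 genes. The same SD was 0.241 in this comparison. The direction of both medians depends on the scale, since TPM as deposited gave 0.14 (26 of 42 higher) and 0.043 (21 of 40 higher), beside an all-gene shift of 0.32 and 0.31. Relative to all genes on that scale, the members were again lower. By percentile rank within a library, 22 of 42 members were higher in controls and 19 of 40 in the labelled knockouts. The median rank differences were 0.073 and -0.53 percentile points, beside 1.12 and 1.15 over all genes. On the rescaled log2 scale, leaving out 1 mouse moved the median between -0.23 and 0.00251 in controls, the latter without DSS control 3. In the labelled knockouts it lay between -0.43 and -0.16. With female mice only, 30 of 43 members were lower after DSS in controls and 32 of 41 in the labelled knockouts. The sign of a member's difference was shared by both genotypes in 28 of 40 members (70%), against 82.5% of 10934 genes.

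Few members were separate between treatments, and the counts depended on the mice and scale used. In controls, 2 of 42 members were above the water range in every DSS-treated mouse (4.76%, against 10.6% of genes) and 3 were below it (7.14%, against 14%). In the labelled knockouts the counts were 1 of 40 above (2.5%, against 17.4%) and 8 below (20%, against 17.9%). Over all 16 mice, 1 of 41 members lay wholly above (4.52% of 11247 genes) and 1 wholly below (6.96%). These were Eif2ak2 and Bst2. Among female mice only, with 2 controls and 3 labelled knockouts in the water arm, 12 of 43 members were below in controls (27.9%, against 20.0% of genes) and 16 of 41 in the labelled knockouts (39.0%, against 22.9%). Without DSS control 1, 9 of 42 were below in controls (21.4%, against 17.3%). With TPM as deposited, 5 members were above in controls and 3 in the labelled knockouts, against 30.9% and 31.5% of genes. On that scale 2 and 4 were below, against 8.25% and 10.1% of genes.

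Eif2ak2 was 2.06 times higher after DSS in controls and 1.98 times higher in the labelled knockouts, by mean rescaled TPM. It was 15.3 ± 3.63 rescaled TPM (SD, n = 3) in DSS-treated controls and 7.41 ± 0.811 (n = 4) in water-treated controls, a difference of 0.93 in log2. The labelled knockouts had 14.6 ± 1.03 (n = 4) and 7.37 ± 0.912 (n = 5), a difference of 0.90. Its median percentile rank within a library was 85.7 and 83.9 after DSS against 74.1 and 73.9 in water, for controls and labelled knockouts. The ranks thus moved the same way without any rescaling. Samd9l differed by 0.54 and 0.51, with overlap in both genotypes after rescaling but in neither as deposited. Ifih1 was above the water range in DSS-treated controls (0.46) and not in the labelled knockouts (0.027). Rtp4 (0.77 and 0.37) and Irf9 (0.95 and 1.35) had positive differences with overlap, that of Rtp4 in the labelled knockouts being -0.64 among female mice only. Ifi27 differed by 0.67 in controls and -0.88 in the labelled knockouts. The control value rested on water control 4, near 0 for the listed transcript of this gene, and was -0.29 without that mouse.

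Bst2 was at 12.8 ± 3.10 rescaled TPM in DSS-treated controls and 53.4 ± 27.2 in water-treated controls, 4.16 times higher in water. In the labelled knockouts it was at 10.5 ± 1.67 and 81.3 ± 34.0, 7.74 times higher in water. Gbp3 differed by -1.42 in controls, where DSS control 1 exceeded the lowest water value, and by -2.09 in the labelled knockouts, without overlap. Gbp6 (-1.01) and Oas1g (-1.32) were below the water range in the DSS-treated controls, Oas1g only after rescaling. In the labelled knockouts Trim30a (-1.20), Isg20 (-1.19), Gbp7 (-1.14), Dhx58 (-1.13), Oas1a (-0.88) and Oasl1 (-0.80) were below it too. Of these, Gbp7, Dhx58, Oas1a and Oasl1 were so only after rescaling, since their deposited TPM overlapped. By role, 7 of 9 GTPases were lower after DSS in controls (median -0.57) and 6 of 9 in the labelled knockouts (-0.71).

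**Figure D3:**
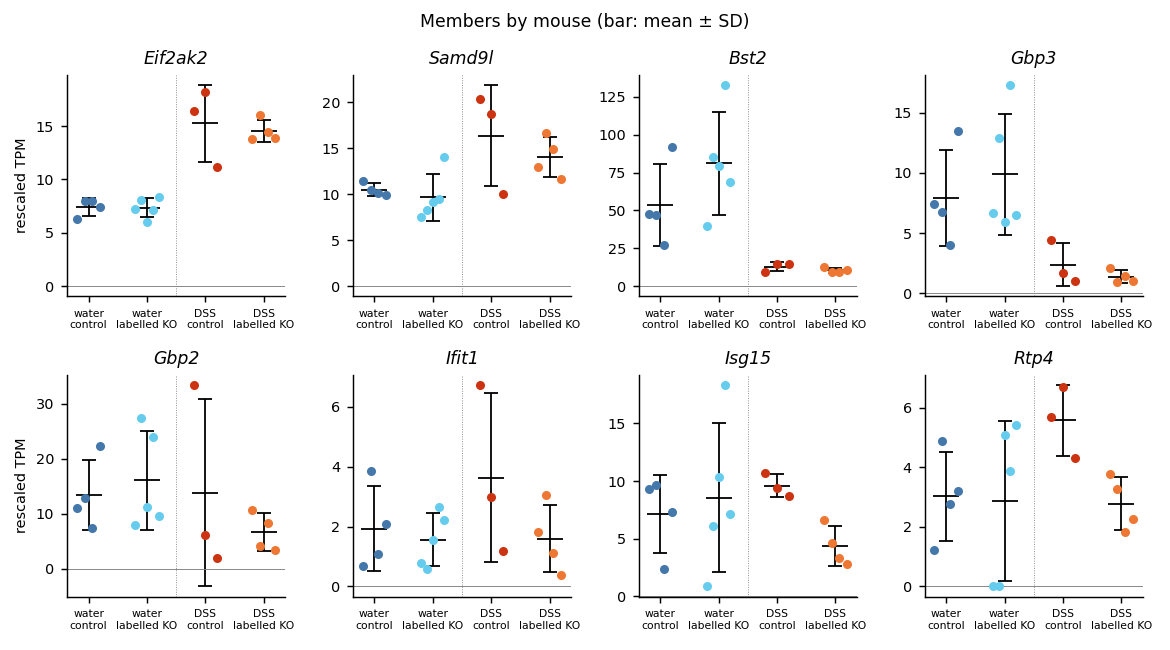
Rescaled TPM of 8 members in each mouse (points), by group, with the mean and SD as bars. Eif2ak2 is higher in every DSS-treated mouse and Bst2 in every water-treated mouse, and 1 DSS-treated control stands above the others for Gbp2 and Ifit1.

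**Figure D4:**
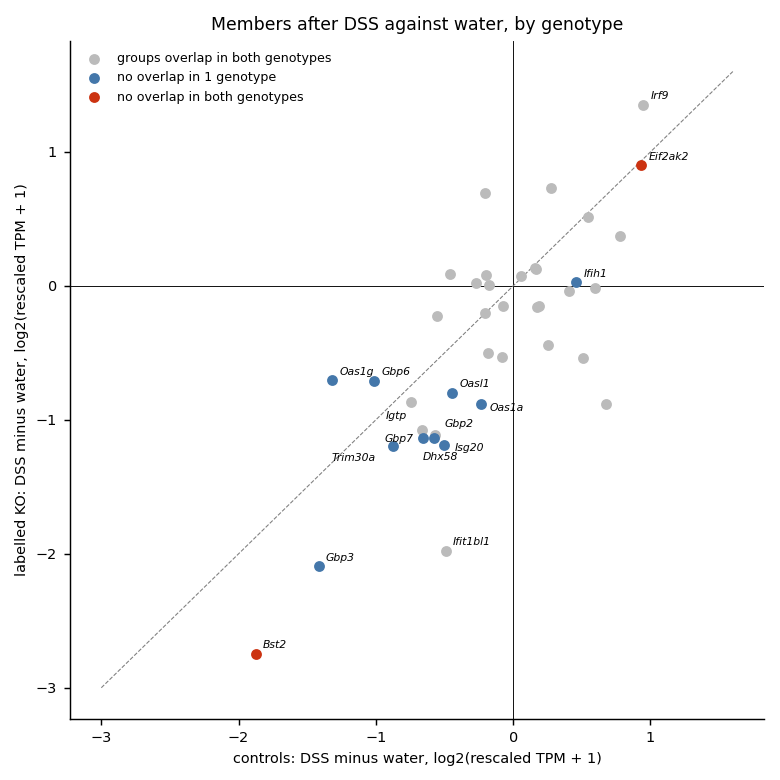
Difference of mean log2(rescaled TPM + 1), DSS minus water, in controls (horizontal) and labelled knockouts (vertical) for the 40 members measured in both, with equal differences on the dashed line. Eif2ak2 at the upper right and Bst2 at the lower left are the 2 members whose groups do not overlap in either genotype.

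RNA of other cells moved with treatment. Water libraries carried far more leukocyte RNA. All 9 measurable leukocyte markers were below the water range in DSS-treated controls and 9 of 10 in the labelled knockouts. The summed level of the 10 markers was 27.1 to 89.6 TPM after DSS and 258 to 669 TPM in water. Ptprc, the common leukocyte antigen CD45, was at 0 in 1 DSS-treated mouse and at most 4.88 TPM in the others, against 7.65 to 29.2 TPM in water. Cd37 was at 0 in all 7 DSS-treated mice but also in 7 of the 9 in water. Macrophage markers summed to 67.4 to 130.4 TPM after DSS and 773 to 1777 TPM in water, and all 9 were below the water range in both genotypes. B and plasma cell markers summed to 8.44 to 465 TPM and 486 to 14375 TPM, and immunoglobulin genes made up at most 2.32% of summed TPM after DSS and 1.71% to 49.0% in water. T cell markers summed to 0.193 to 2.85 TPM and 8.905 to 38.9 TPM, with Cd8a at 0 in 14 of the 16 mice. The 5 markers of plasmacytoid dendritic cells were mixed. Siglech was at 0 in 6 of 7 DSS-treated mice and at 0.332 to 3.68 TPM in water, and Klk1 was below the water range after DSS in both genotypes. Tcf4 was above that range in the labelled knockouts (0.42) and overlapped in controls, Lair1 was at 0 in all DSS-treated mice and in 4 of 9 in water, and Ccr9 stayed under 1 TPM throughout. After DSS the 5 summed to 209 to 775 TPM, nearly all from Klk1 and Tcf4, with Siglech at 0 in most mice. Klk1 is therefore not read here as a measure of plasmacytoid dendritic cells. The part of these cells in the member levels was not tested, and in bulk RNA fewer cells of a type and less RNA per cell cannot be told apart.

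Within the water arm, water knockout 4 had the highest leukocyte (5.76) and macrophage (7.37) marker means of log2 level and the highest summed TPM of the 48 members (543 TPM, against 344 to 459 TPM in the other water-treated mice). It was the highest of the 9 mice for 10 of 39 members, against 12.2% of all genes. Epithelial markers did not separate the arms in their mean log2 level, at 8.35 to 8.75 after DSS and 8.43 to 8.83 in water. Taken singly, 1 of the 10 was above the water range in DSS-treated controls (10.6% of genes) and 0 below (14%). In the labelled knockouts 2 were above (17.4% of genes) and 4 below (17.9%).

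**Figure D5:**
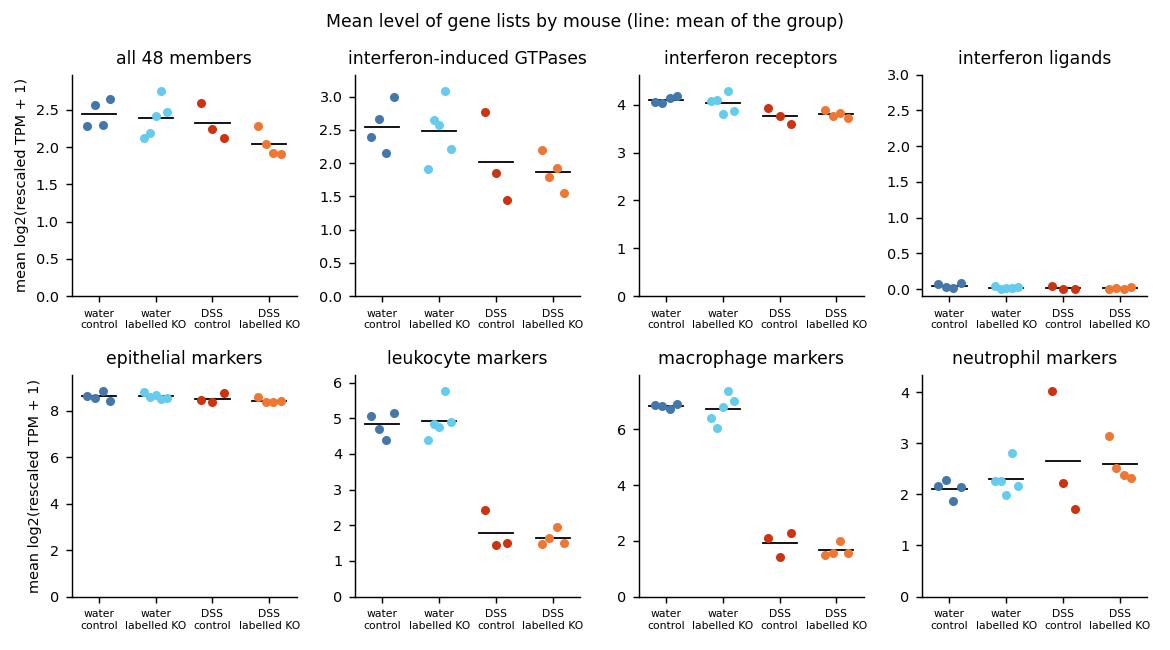
Mean log2(rescaled TPM + 1) of the 48 members, of the interferon-induced GTPases and of lists of pathway and marker genes in each mouse (points), with the group mean as a line and a vertical scale set for each panel. Leukocyte and macrophage markers are higher in every water-treated mouse, the means of the epithelial markers overlap, and interferon ligands lie near 0 throughout.

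Upstream of the members, interferon transcripts were close to undetected. Of 21 ligand genes, the sum was 0 to 0.818 TPM after DSS and 0 to 2.18 TPM in water. Ifng reached 2.18 TPM in 1 water-treated mouse, Ifnb1 was above 0 in 1 water-treated mouse, and the lambda genes Ifnl2 and Ifnl3 were at 0 in all 16. Receptor genes were expressed, and 0 of 6 differed between genotypes at an unadjusted p under 0.05 in either arm by limma. Ifngr1, a chain of the interferon-gamma receptor, was at 88.2 to 106.5 TPM after DSS and 91.7 to 105.2 TPM in water. Ifnar1 of the type I receptor was at 5.89 to 14.9 and 9.19 to 22.4 TPM. Ifnlr1, the specific chain of the type III receptor, was at 2.14 to 4.22 and 1.65 to 2.67 TPM. On the rescaled log2 scale 2 of 6 receptor genes were below the water range after DSS in controls (14% of all genes) and 2 of 6 in labelled knockouts (17.9%). Among them was Ifngr1 (-0.46 in controls and -0.34 in labelled knockouts), whose deposited TPM overlapped between treatments over all mice.

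Of 10 genes that relay or brake the signal, 0 passed an unadjusted p of 0.05 between genotypes in either arm by limma. Socs3, a feedback inhibitor of JAK signalling, was below the water range after DSS in both genotypes (-1.78 and -1.43 in log2). Jak2 was above it in the labelled knockouts (0.43). Of 14 genes that sense nucleic acid upstream of interferon, 6 were below the water range in DSS-treated controls (14% of all genes) and 0 above (10.6%). In the labelled knockouts 4 of 13 were below (17.9% of all genes) and 3 above (17.4%). Among those below the water range in both genotypes were Tlr7 (-2.996 and -2.56) and Irf5 (-3.07 and -3.20), both known from leukocytes. Tlr3, the endosomal sensor of double-stranded RNA, was above it in the labelled knockouts (0.68) and overlapped in controls (0.55). Between genotypes, 1 of 11 tested after DSS (2.65% of all genes) and 3 of 13 in water (5.28%) had an unadjusted p under 0.05 by limma. Of these genes 0 were called.

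Of 59 further interferon-responsive genes outside the module, 0 of 41 tested after DSS and 0 of 45 tested in water differed between genotypes by limma. At an unadjusted p under 0.05 by limma stood 1 of the 41 (2.65% of all genes) and 2 of the 45 (5.28%). The median log2 change of those tested was -0.11 after DSS (29 of 41 lower in the labelled knockouts) and -0.15 in water (29 of 45 lower). Between treatments 30 of 45 were lower after DSS in controls and 30 of 43 in the labelled knockouts. In controls 3 of 45 lay above the water range (10.6% of all genes) and 9 below it (14%), and in the labelled knockouts 3 of 43 lay above (17.4%) and 14 below (17.9%). Of the remaining marker lists, neutrophil (1.71 to 4.02 after DSS, 1.86 to 2.80 in water), stromal (3.14 to 5.15 and 3.97 to 5.62) and endothelial markers (0.966 to 1.99 and 0.908 to 2.24) overlapped between treatments in their mean log2 level.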

How the data were processed

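RNA of EpCAM+ cells from 16 mice was profiled by polyA-selected sequencing, and the values come from 2 tables, 1 for each treatment. Per the labels and methods, the authors quantified transcripts with kallisto and sleuth on mm10 and deposited TPM (transcript abundances, scaled within each table) for principal isoforms only. The TPM of the transcripts of a symbol were summed here, after 385 repeated lines of 29373 were dropped, giving 22396 symbols. The authors' own comparison columns, which hold fold changes and p- and q-values, were not used.

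Genotypes were compared within each table with limma 3.58.1 (R 4.3.3, moderated with a mean-variance trend) on log2(TPM + 1), for genes that averaged 1 TPM or more over the mice compared, and p-values were adjusted by Benjamini-Hochberg over all of them. Fold changes on this scale understate those of low genes. Single members had an exact two-sided permutation test of means. The fit was tested on simulated data. Across tables, 1 set of median-of-ratios factors rescaled the 16 mice, and levels were described without a test. Replicates are mice, as the labels name them. Per-mouse values are given for members with the highest mean in their role, the 5 largest differences each way in a comparison or the 3 widest ranges within a group. Ifih1 was added by mouse, and Zbp1 by its mean and genotype change only, after their values were seen. The members and lists were chosen with earlier results of these data known. Alternatives covered the pseudocount, filter, scaling, covariates, sex and each mouse left out. A gene of the relay list is not reported here by name.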

Additional observations from a re-analysis of the deposited data

Results flagged for a closer look

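Among the 29 members named by rule, 87 sets of 4 or 5 mice were examined, and in 9 of them 1 mouse stood far from the others of its group, a gap that chance gives in about 1 of 20 sets. After DSS, labelled knockout 1 was high for Oas1a (23.6 TPM, against 13.7 to 14.8 in the other 3) and labelled knockout 4 was low for Oasl2 (0.886 TPM, against 1.12 to 1.16). In water, control 3 was low for Ddx58 (1.18 TPM, against 4.26 to 4.83) and for Ifi47 (1.58 TPM, against 3.66 to 4.02). Water control 4 was high for Trim30a (7.62 TPM, against 4.28 to 4.85) and for Irf9 (3.00 TPM, the others at or near 0). Of the labelled knockouts in water, mouse 4 had Irf9 at 0.0014 TPM against 0 in the rest, mouse 5 was high for Samd9l (12.6 TPM, against 6.84 to 8.36) and mouse 2 was low for Ifi35 (9.01 TPM, against 12.5 to 13.4). The cause was not tested.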

How the results depend on the processing

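The number of members called between genotypes was 0 under every alternative run, in either arm. Over all genes, the count called after DSS went from 1 to 0 with a pseudocount of 0.1, with no filter and with the replicate number as a block, and lay between 0 and 3 with a mouse left out (3 without DSS control 1, 2 without DSS control 3). In water it went from 1 to 0 with a pseudocount of 0.1, a mean of at least 5 TPM or the replicate block, and to 4 with no filter, 2 with quantile normalization and 3 with all 4 groups in a single fit, and lay between 1 and 2 with a mouse left out. Under the replicate block the members' median log2 change was -0.22 after DSS and -0.039 in water. The replicate numbers did not pair the mice, since the correlation of deviations between same-numbered mice was -0.20 to -0.025 after DSS and -0.077 to 0.093 in water, and 2 of the 7 numbers had their own number as best partner. With TPM as deposited, the median difference between treatments was 0.14 in controls and 0.043 in the labelled knockouts. Members not overlapping were 5 higher in controls (11.9%, against 30.9% of genes). In the labelled knockouts 3 were higher (7.5%, against 31.5%) and 4 lower (10%, against 10.1%). With a mean of at least 5 TPM, 1 member was higher in controls (5.26%, against 11.1% of genes) and 1 lower (5.26%, against 13.7%). In the labelled knockouts 5 were lower (26.3%, against 20.8%), and the median was -0.54. Without immunoglobulin genes in the scaling, 5 were lower in controls (11.9%, against 15.6% of genes). With female mice only, 12 were lower in controls (27.9%, against 20.0% of genes) and 16 in the labelled knockouts (39.0%, against 22.9%). The median in the latter was -0.53. Leaving out a mouse gave 2 to 6 higher and 4 to 9 lower members in controls. Lower were 9 of 42 without DSS control 1 (17.3% of genes) and 8 of 42 without water control 3 (16.8% of genes). Without DSS control 3, 7 of 43 were lower and 6 higher, both smaller shares than the 26.3% and 24.9% of genes. Without water control 1, 6 of 43 were lower, also a smaller share than the 15.5% of genes. In the labelled knockouts 1 to 3 were higher and 8 to 11 lower (11 of 40 without water knockout 2, against 20.2% of genes). No named member crossed the threshold between genotypes under any alternative, but the sign of the change differed in 72 of 911 values, over 24 of 55 changes, most of them close to 0 (median size 0.043). Between treatments the sign differed in 47 of 834 values, over 21 of 58 differences, and 28 values moved by more than the spread between mice. The cause of these shifts was not tested, beyond fewer genes or mice entering. The tables hold no read counts, so counting error was not separated from the spread between mice, and with 3 against 4 mice no exact p can fall below 0.0286.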
